A study of Mus musculus with 6 samples.

Results

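Dock2, Cyfip2, Wdfy1, Ide, Nnt and Mmrn1 are 6 mouse genes known or suspected to vary between substrains of the C57BL/6 inbred strain. They were read by symbol from a table of 17666 genes measured by RNA sequencing in the auditory nerve, and all 6 were found. The list was drawn up with the difference between the knockout and wildtype libraries of this same table known. The levels of these genes in the 6 libraries are therefore given as a description, with no test. The question was how far genes that mark strain background differ between mice that the labels set apart by 1 knocked-out gene.

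There were 3 libraries labelled as knockout of factor B, the complement protease encoded by Cfb, and 3 labelled wildtype. Each came from the auditory nerve tissue microdissected from the 2 cochleas of 1 young adult mouse, aged 1.5 to 2.5 months. The labels call both groups C57 and name no substrain, supplier, breeding scheme or allele, so a difference of stock and a difference of Cfb genotype cannot be told apart. The values are normalized counts, which the authors had scaled per sample and rounded. The normalized counts of a library summed to between 38675077 and 41496282; the number of reads is unknown.

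Cfb went against the labels, with 336, 351 and 376 normalized counts in the knockout-labelled libraries and 55, 39 and 116 in the wildtype-labelled libraries. The log2 difference was 2.47 (SE 0.38; adjusted p = 0.107, limma), short of the threshold of 0.05. Without wildtype replicate 3 the difference was 2.91 with an adjusted p of 0.00348, and over all alternatives the adjusted p ran up to 0.47. In the authors' deposited table Cfb was called, with a fold change of 5.08 and a false discovery rate of 1.8e-06. Whether the labels are exchanged, or the reads lie in a part of Cfb that the knockout leaves intact, cannot be told from a count per gene. All directions below are between libraries as labelled. The tissue markers were present in every library. The 8 Schwann cell markers summed to 402862 to 495160 in the knockout-labelled libraries and 400733 to 727827 in the wildtype-labelled libraries, and 1 of the 8 had the higher mean under the knockout label. The 10 neuron markers summed to 436918 to 528101 in the knockout-labelled libraries and 313929 to 538957 in the wildtype-labelled libraries. In bulk tissue, fewer cells of a type and less RNA per cell cannot be told apart.

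C57BL/6 mice have been bred as separate colonies for many decades, and each colony has fixed mutations of its own. The best known is in Nnt, the transhydrogenase that makes NADPH in mitochondria, which lost a run of exons in C57BL/6J. Cyfip2, a subunit of the WAVE complex that drives actin branching, carries a missense change in C57BL/6N, and Dock2, which activates Rac in blood cells, has an exon duplication in some C57BL/6N-derived stocks. Ide, the insulin-degrading enzyme, lies where a copy-number gain is known in some C57BL/6J mice. Mmrn1, the platelet and endothelial protein multimerin 1, is deleted in C57BL/6OlaHsd. Wdfy1, an endosomal adaptor of Toll-like receptor signalling, is among the genes whose transcript level has been reported to differ between substrains.

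A count per gene can show a change of level but not a change of letters or of exon structure. The sequence below shows the codon of Cyfip2 that the C57BL/6N change turns from serine to phenylalanine, as it stands in the C57BL/6J assembly GRCm38. It lies in exon 25 of 31 of the Gencode M21 model Cyfip2-201, at chr11:46222610-46222646 on the minus strand, with the codon in capitals.
Cyfip2 codon: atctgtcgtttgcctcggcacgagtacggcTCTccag
The reference strain thus has the serine codon TCT, and reads with either letter would be counted under the same gene. For Nnt the exons themselves differ. The longest coding model of Nnt on the same assembly, Nnt-202, has 17 exons and 2505 coding bases, and reads from exons that the C57BL/6J genome lacks could not be placed on it.

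The start of Dock2, the gene with the largest log2 difference in size among the 5 listed above 0 in every library, is set beside that of Cyfip2, the most abundant of them. Each window holds 300 bases around the start given by RefSeq on GRCm38.p6, most of them upstream, on the minus strand, at chr11:34783856-34784155 for Dock2 and chr11:46312309-46312608 for Cyfip2. The Cyfip2 window lies within the Gencode M21 gene, which on the minus strand starts at 46312859. Capitals mark GGAAGT, a form of the site of ETS factors, and TTTAAA, a sequence like a TATA box. Both were chosen after the sequence was seen and searched on both strands.
Dock2 promoter: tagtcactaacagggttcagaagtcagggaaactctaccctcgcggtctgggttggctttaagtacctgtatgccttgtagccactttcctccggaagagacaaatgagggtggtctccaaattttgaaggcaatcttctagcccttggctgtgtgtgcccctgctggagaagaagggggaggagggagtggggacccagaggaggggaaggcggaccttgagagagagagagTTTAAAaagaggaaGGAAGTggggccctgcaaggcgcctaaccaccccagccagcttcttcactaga
Cyfip2 promoter: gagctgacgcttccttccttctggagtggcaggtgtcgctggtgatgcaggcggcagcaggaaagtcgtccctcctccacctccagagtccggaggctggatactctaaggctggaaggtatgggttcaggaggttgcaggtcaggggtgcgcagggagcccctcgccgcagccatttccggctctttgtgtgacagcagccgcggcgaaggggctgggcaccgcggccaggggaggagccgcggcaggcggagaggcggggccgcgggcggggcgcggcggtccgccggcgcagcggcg
Dock2 had 1 match to each motif and the Cyfip2 window had none. Of 32851 promoter windows of the same length, 23.8% held GGAAGT and 13.2% held TTTAAA. The Dock2 window held 5 CG dinucleotides, near the median of 7 over all windows, and the Cyfip2 window held 29, more than 87.1% of them.

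The clearest separations between the labels were those of Dock2 and Wdfy1, which went in opposite directions. Ide was also lower and Cyfip2 higher in the knockout-labelled libraries, Nnt was 1.09-fold lower, and Mmrn1 was at most 29 normalized counts in any library. In 5 of the 6 genes the values under the 2 labels did not overlap, with 2 above and 3 below. Over the whole table the values of 28.5% of 17666 genes did not overlap (13.6% above and 14.9% below under the knockout label), and since the list was chosen on this contrast nothing is read from that count.

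**Figure D1:**
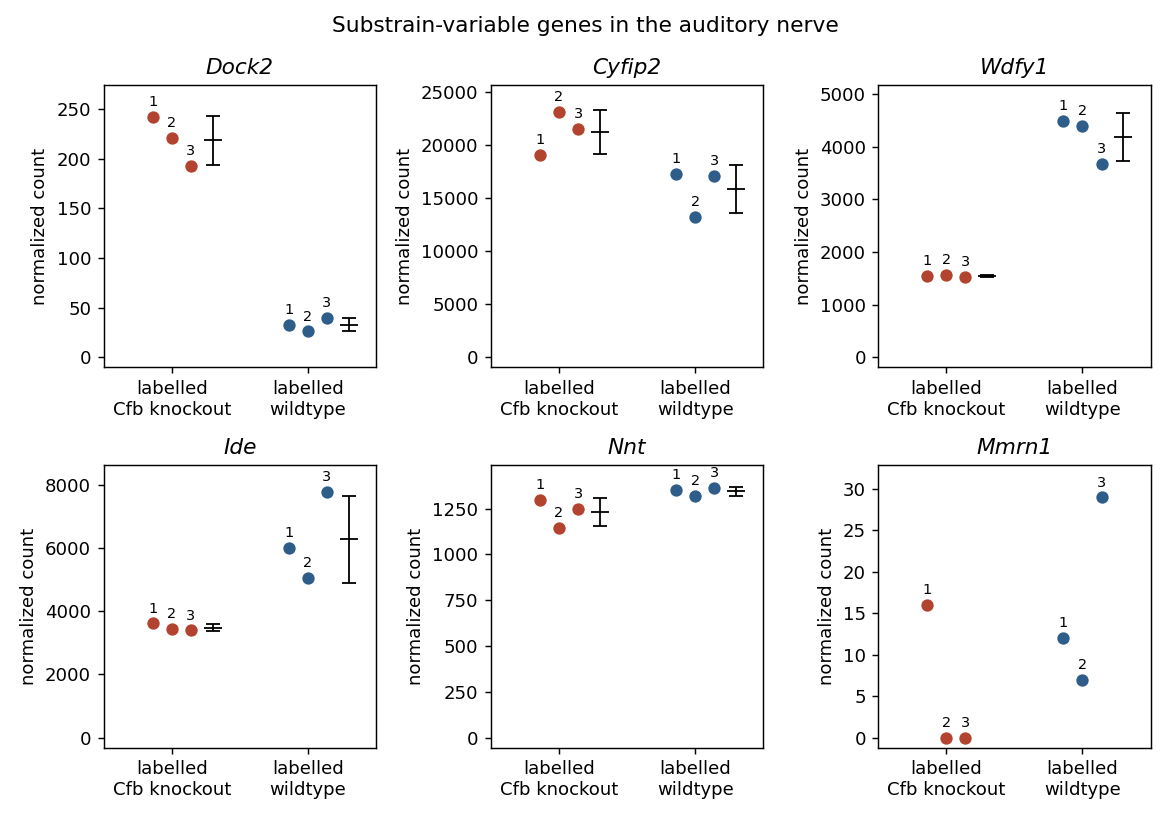
Normalized counts (y axes, each from 0) of the 6 genes in the 3 libraries labelled Cfb knockout (red) and the 3 labelled wildtype (blue), numbered by replicate; black bars give the mean and SD, left out for Mmrn1, which is listed at 0 in 2 libraries. Dock2 and Wdfy1 stand apart by label, with Dock2 at 193 or more under the knockout label and 40 or fewer under the wildtype label, and Wdfy1 at 1567 or fewer under the knockout label and 3668 or more under the wildtype label.

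Dock2, an exchange factor that switches on the GTPase Rac in leukocytes (chr11:34226815-34783892, GRCm38, minus strand), had 242, 221 and 193 normalized counts in the knockout-labelled libraries and 33, 26 and 40 in the wildtype-labelled libraries. Every knockout-labelled library was thus far above every wildtype-labelled one. The mean was 218.7 ± 24.6 in the knockout-labelled libraries and 33.0 ± 7.0 in the wildtype-labelled libraries (SD, n = 3 each), 6.63 times as high under the knockout label, or a difference of 2.71 on the log2(value + 1) scale. Among all genes, 71 had a larger difference in size than Dock2. The same number was 86 for Mmrn1, 538 for Wdfy1, 1844 for Ide, 5338 for Cyfip2 and 13043 for Nnt. The list was chosen on this contrast, so nothing is read from these ranks. The authors' deposited table gives a fold change of 6.65 for Dock2.

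Other leukocyte transcripts did not show this separation as a group. Of 17 markers, 0 passed limma, where 0.158% of all genes did, and 4 (23.5%) had an unadjusted p under 0.05, where 20% of all genes had one. The values of 7 of the 17 (41.2%) did not overlap between labels, 1 higher and 6 lower, where 28.5% of all genes did not. The 17 leukocyte markers summed to 8030 to 8895 in the knockout-labelled libraries and 8074 to 9123 in the wildtype-labelled libraries, and 5 of the 17 had the higher mean in the knockout-labelled libraries. Ptprc, the pan-leukocyte antigen CD45, had 314, 252 and 211 in the knockout-labelled libraries and 273, 273 and 307 in the wildtype-labelled libraries. These ranges overlap. Vav1, another Rac exchange factor of blood cells, had 164, 151 and 192 in the knockout-labelled libraries and 122, 124 and 145 in the wildtype-labelled libraries. It was the 1 non-overlapping marker that was higher, as Dock2 was, with a log2 difference of 0.37, and did not pass limma. Red cell markers differed in the other direction from Dock2. Of 7, 0 passed limma, 7 had an unadjusted p under 0.05 (20% of all genes), and 6 did not overlap between labels (28.5% of all genes). Of the 7, 6 were called as lower in the authors' deposited table, where 3.25% of the genes with a rate were. All 7 were lower in the knockout-labelled libraries, with sums of 1937 to 2773 there and 8009 to 24589 in the wildtype-labelled libraries. Their part in the result was not tested.

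Fam196b lies within Dock2 on the opposite strand. It had 1489, 1557 and 1247 normalized counts in the knockout-labelled libraries and 1671, 1020 and 717 in the wildtype-labelled libraries, which overlap. Whether the counting used strand is not given in the sources used here, so reads of the 2 genes cannot be told apart where their exons meet. No other gene had a stretch of at least 200 bases with at least 90% identity to the longest coding model of Dock2, nor of any other of the 6.

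Cyfip2 (chr11:46193850-46312859, GRCm38, minus strand) carries the Rac signal to actin as part of the WAVE complex. It had 19062, 23132 and 21519 normalized counts in the knockout-labelled libraries and 17295, 13250 and 17108 in the wildtype-labelled libraries. The labels did not overlap, but the highest wildtype value and the lowest knockout value were 1767 apart, less than either SD. The mean was 21237.7 ± 2049.5 in the knockout-labelled libraries and 15884.3 ± 2283.3 in the wildtype-labelled libraries (SD, n = 3 each), 1.34-fold higher under the knockout label, with a log2 difference of 0.43.

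The difference between labels varied with transcript length over the whole table, and Cyfip2 has a long transcript. Among genes averaging 20 or more, the median log2 difference was -0.24 for 3053 genes with a longest transcript under 2000 bases and 0.34 for 2173 genes of 6000 bases and over. The longest coding model of Cyfip2 has 6659 bases. With the length trend removed, an alternative chosen after seeing the data, the log2 difference of Cyfip2 was 0.16. That of Dock2, whose model has 6409 bases, was 2.46.

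Wdfy1 (chr1:79702262-79776143, GRCm38, minus strand) binds phosphoinositides on early endosomes and recruits the adaptor TRIF to Toll-like receptors 3 and 4. It had 1546, 1567 and 1521 normalized counts in the knockout-labelled libraries and 4483, 4399 and 3668 in the wildtype-labelled libraries. All knockout-labelled libraries lay within a narrow band, 2101 below the lowest wildtype value. The mean was 1544.7 ± 23.0 in the knockout-labelled libraries and 4183.3 ± 448.3 in the wildtype-labelled libraries (SD, n = 3 each), 2.71-fold lower under the knockout label, with a log2 difference of -1.43.

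The spread of Wdfy1 within each label was small beside this gap. Its coefficient of variation was 1.49% in the knockout-labelled libraries, where 14214 genes averaging 50 or more had a median of 7.64%. In the wildtype-labelled libraries it was 10.7%, against a median of 17.5%. Mrpl44, a mitochondrial ribosomal protein gene, overlaps the end of the Wdfy1 locus on the opposite strand and had 1119, 1047 and 905 normalized counts in the knockout-labelled libraries and 1100, 1337 and 1124 in the wildtype-labelled libraries. Its ranges overlap.

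Ide (chr19:37268743-37337852, GRCm38, minus strand), a zinc metallopeptidase that degrades insulin and amyloid beta, had 3616, 3443 and 3393 normalized counts in the knockout-labelled libraries and 6009, 5056 and 7769 in the wildtype-labelled libraries. The knockout values were close together and the wildtype values spread widely, with replicate 3 the highest. The mean was 3484.0 ± 117.0 in the knockout-labelled libraries and 6278.0 ± 1376.4 in the wildtype-labelled libraries (SD, n = 3 each), 1.8-fold lower under the knockout label, with a log2 difference of -0.83. Leaving out 1 library at a time moved this difference between -0.97 and -0.66.

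The transcripts around Ide differed among themselves. Among its 10 nearby listed genes 4 lay higher and 6 lower, with a median log2 difference of -0.07. Cpeb3 (0.42) and Hhex (0.25) were among those higher. Fgfbp3, a fibroblast growth factor carrier reported to vary with Ide in C57BL/6J, had 314, 286 and 343 normalized counts in the knockout-labelled libraries and 408, 687 and 285 in the wildtype-labelled libraries, which overlap (log2 difference -0.46, SE 0.31, adjusted p = 0.44 by limma; -0.12 without wildtype replicate 2 and -0.75 without wildtype replicate 3). The closest listed gene, 4931408D14Rik, lies 4.6 kb from Ide and was singled out after its values were seen. It had 6, 6 and 11 in the knockout-labelled libraries and 89, 38 and 41 in the wildtype-labelled libraries, a log2 difference of -2.66. This did not pass limma over all genes, passed without wildtype replicate 3 (log2 difference -2.82, adjusted p = 0.0401), and was called in the authors' deposited table. Kif11, the mitotic motor gene on the other side of Ide, also lay lower, with 25, 40 and 31 in the knockout-labelled libraries and 89, 41 and 50 in the wildtype-labelled libraries, and did not pass limma (log2 difference -0.83).

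Nnt (chr13:119335448-119408997, GRCm38, minus strand) had 1295, 1145 and 1248 normalized counts in the knockout-labelled libraries and 1350, 1318 and 1361 in the wildtype-labelled libraries. The values did not overlap, yet the gap was 23 normalized counts. The mean was 1229.3 ± 76.7 in the knockout-labelled libraries and 1343.0 ± 22.3 in the wildtype-labelled libraries (SD, n = 3 each), 1.09-fold lower under the knockout label. The log2 difference of -0.13 was -0.08 without knockout replicate 2, and 13043 genes of the table had a larger one in size. Which exons the Nnt reads covered cannot be read from these values.

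Mmrn1 (chr6:60924976-60989378, GRCm38, plus strand) was sparse. It was listed at 16, 0 and 0 in the knockout-labelled libraries and at 12, 7 and 29 in the wildtype-labelled libraries. The labels overlap, since knockout replicate 1 lay above 2 of the 3 wildtype-labelled libraries. The log2 difference of -2.51 depends on the pseudocount, with -3.13 at 0.5 and -0.83 at 10, and was -3.87 without knockout replicate 1. Taken from the ratio of mean values it was -1.58, smaller in size. No fold is read here from values this low. The authors' deposited table lists a signed fold change of -3.08 for Mmrn1, with no false discovery rate.

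Sources of Mmrn1 RNA were looked at through their markers. The 14 genes of the platelet list include the clotting genes F5, F8 and Vwf. They summed to 3351 to 4589 in the knockout-labelled libraries and 2356 to 3077 in the wildtype-labelled libraries, higher and without overlap. Vwf alone supplied 1922, 2282 and 3027 of these sums under the knockout label and 1643, 1106 and 1538 under the wildtype label. Of the 14 genes, 4 had the higher mean under the knockout label, namely F8, Vwf, Itga2b and Itgb3. Among those lower, Ppbp had 2, 3 and 4 normalized counts in the knockout-labelled libraries and 52, 69 and 12 in the wildtype-labelled libraries, and Pf4 had 87, 79 and 123 in the knockout-labelled libraries and 147, 177 and 75 in the wildtype-labelled libraries. The 6 lymphatic endothelial markers summed to 7509 to 7772 in the knockout-labelled libraries and 5313 to 6505 in the wildtype-labelled libraries; Prox1 and Reln, which neurons of the ear or brain also express, made up much of these sums. The lymphatic chemokine gene Ccl21a was listed at 5, 0 and 0 in the knockout-labelled libraries and at 4, 3 and 2 in the wildtype-labelled libraries. The 9 other endothelial markers summed to 13995 to 17058 in the knockout-labelled libraries and 13025 to 14672 in the wildtype-labelled libraries. Their part in the Mmrn1 values was not tested.

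Per kilobase of the longest coding model, the top of the order was the same in every library. Cyfip2 was first and Ide second in all 6 libraries, with mean levels of 3190 and 702 normalized counts per kilobase in the knockout-labelled libraries and 2390 and 1270 in the wildtype-labelled libraries. Wdfy1 and Nnt came next: at 339 and 355 per kilobase in the knockout-labelled libraries they lay side by side, while at 919 and 388 in the wildtype-labelled libraries Wdfy1 was above. Dock2 had 34.1 per kilobase in the knockout-labelled libraries and 5.15 in the wildtype-labelled libraries, and was above Mmrn1 in every library except wildtype replicate 3.

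**Figure D2:**
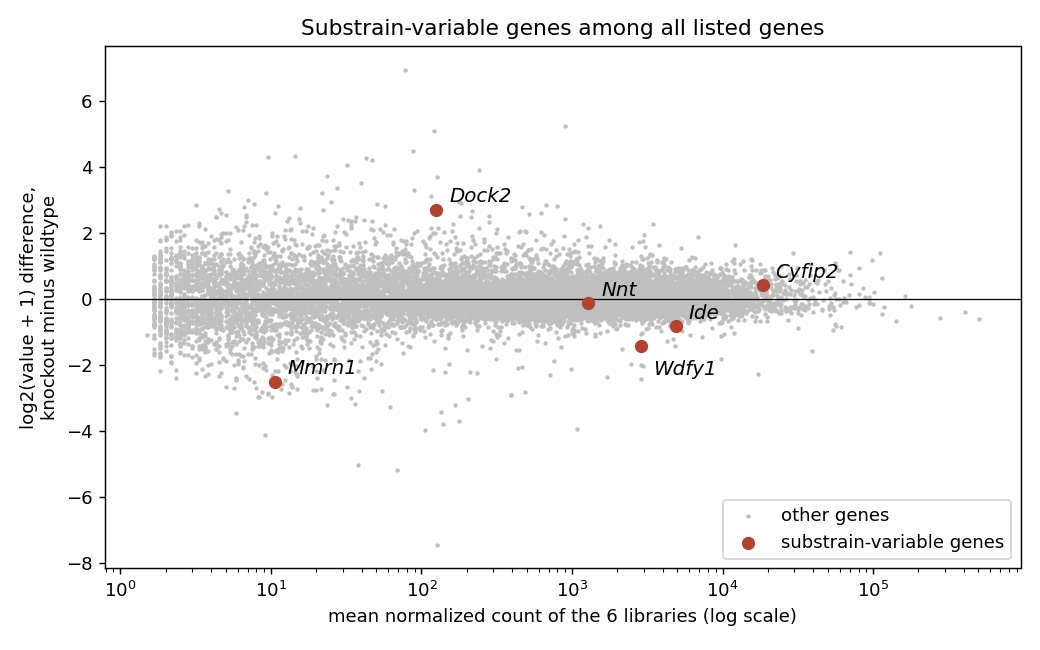
Difference between labels on the log2(value + 1) scale (y axis, knockout minus wildtype) against the mean normalized count of the 6 libraries (x axis, log scale) for every listed gene (grey) and the 6 substrain-variable genes (red). Dock2 lies at 2.71 and Wdfy1 at -1.43, away from the mass of genes of like level, and Nnt at -0.13 within it.

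Further genes with substrain variants showed no common shift. Of 5 such genes, 0 passed limma and 0 had an unadjusted p under 0.05, where 28 of all 17666 genes passed, or 0.158% (0.102% higher and 0.0566% lower). The authors' deposited table called 0 of them, and the values of all 5 overlapped between labels. At a share of 0.158%, 0 limma calls among 5 genes would be usual, and a count per gene misses a change of letters. Nothing on strain background is read from these 5 genes. Crb1, a cell polarity gene mutated in C57BL/6N, had 53, 48 and 58 normalized counts in the knockout-labelled libraries and 81, 31 and 32 in the wildtype-labelled libraries. Gabra2, a GABA receptor subunit gene with an intronic deletion in C57BL/6J, had 64, 77 and 60 in the knockout-labelled libraries and 105, 73 and 19 in the wildtype-labelled libraries. Both genes overlapped between labels, with log2 differences of 0.28 and 0.33. Entpd4, a nucleotidase of the Golgi, had means of 14682.0 ± 2555.2 in the knockout-labelled libraries and 14722.3 ± 2338.1 in the wildtype-labelled libraries (SD, n = 3 each). Nlrp12, an inhibitory NOD-like receptor, was at 1, 1 and 1 in the knockout-labelled libraries and 1, 3 and 7 in the wildtype-labelled libraries.

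**Figure D3:**
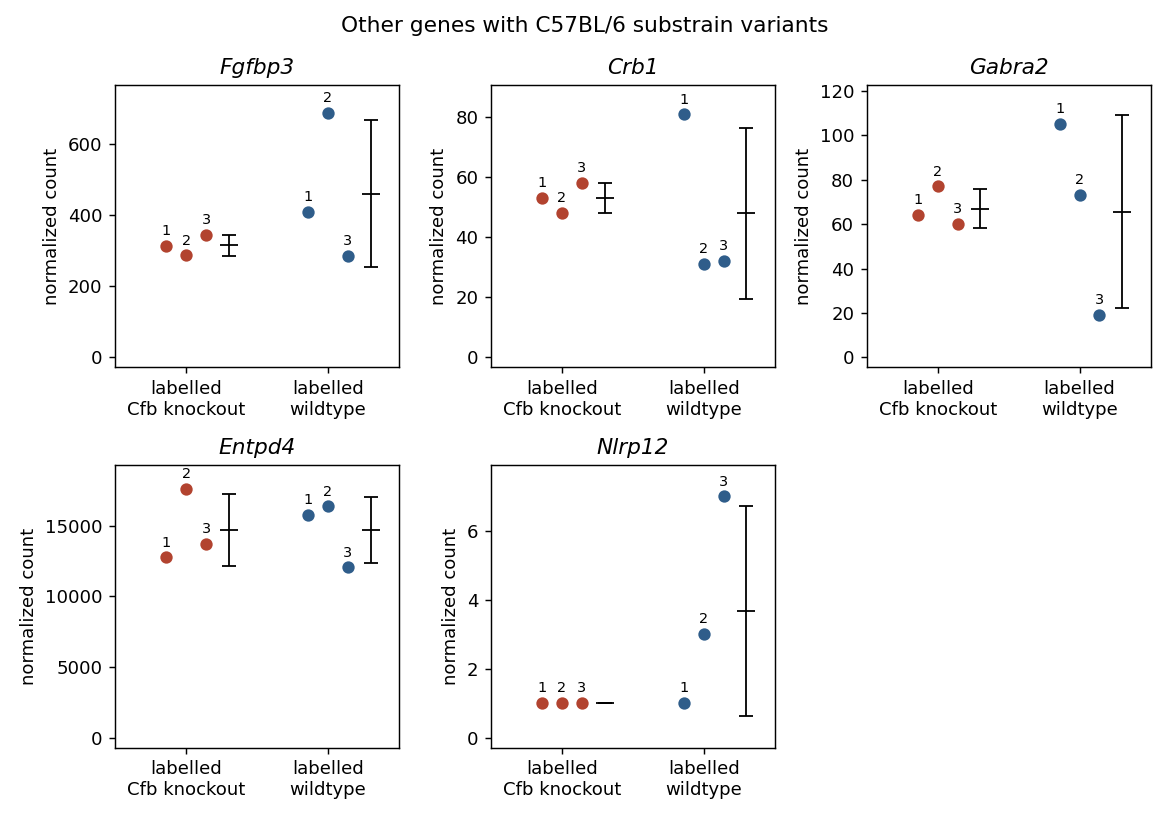
Normalized counts (y axes) of 5 further genes with C57BL/6 substrain variants in the 3 libraries labelled Cfb knockout (red) and the 3 labelled wildtype (blue), numbered by replicate, with mean and SD in black where the SD is below the mean. The labels overlap in all 5 genes, and wildtype replicate 3 of Gabra2, at 19, is its lowest library.

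Few genes beside the 6 separated by label. Among 59 nearby listed genes, up to 5 on each side of each member, limma called 0, and 5 had an unadjusted p under 0.05, or 8.47%, where 20% of all genes had one. The labels did not overlap for 16.9% of the neighbours, against 28.5% of all genes. The authors' deposited table called 2 of the 59, namely 4931408D14Rik beside Ide and Fndc9. Fndc9 lies within Cyfip2 on the opposite strand and had 36, 31 and 30 normalized counts in the knockout-labelled libraries and 13, 9 and 12 in the wildtype-labelled libraries. It was higher where Cyfip2 was higher, with a log2 difference of 1.44, and if the counting ignored strand, its reads could not be told apart from those of unspliced Cyfip2 RNA. The median log2 difference was -0.07 for the neighbours of Dock2 and 0.06 for those of Wdfy1, with all genes at 0.01.

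**Figure D4:**
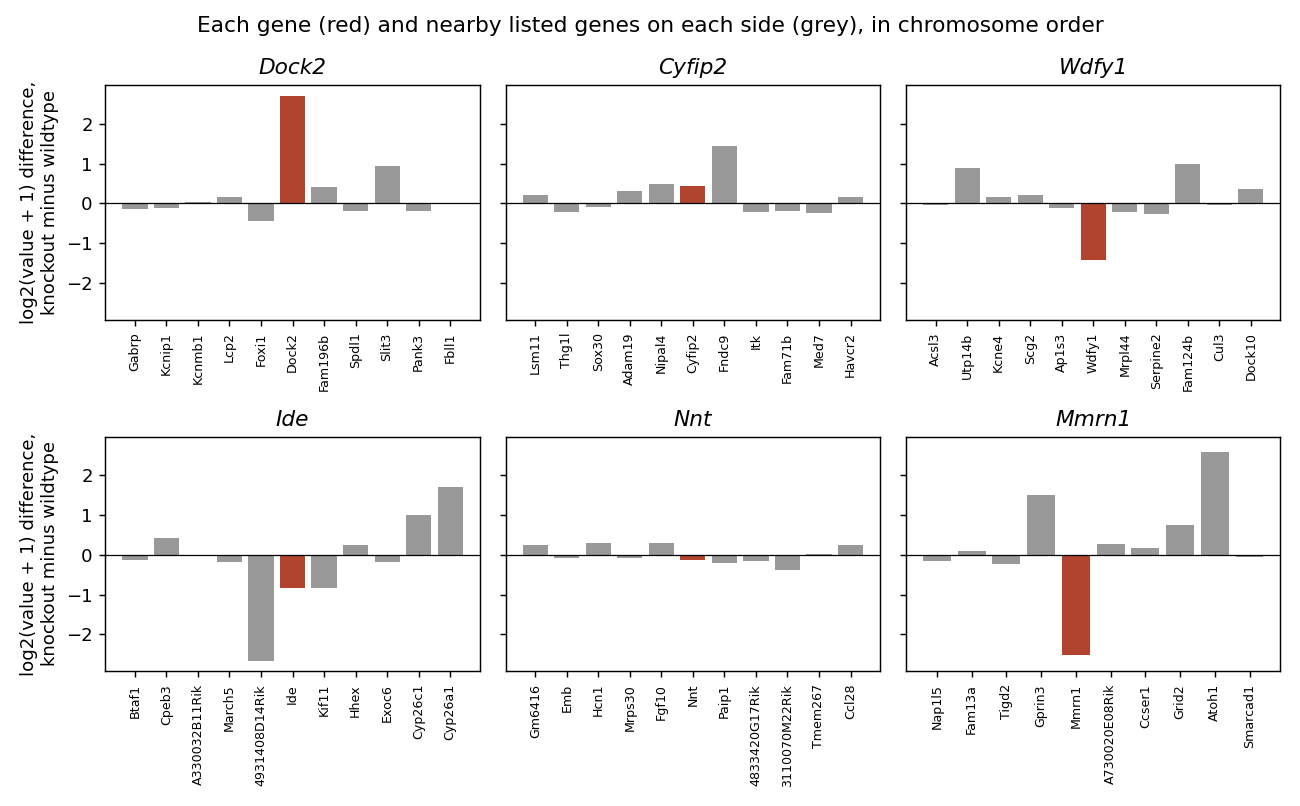
Difference between labels on the log2(value + 1) scale (y axis, knockout minus wildtype) of each of the 6 genes (red) and of up to 5 nearby listed genes on each side (grey), in chromosome order along the x axes. The bars of Dock2 (2.71) and Wdfy1 (-1.43) exceed in size those of their own neighbours, and beside Ide (-0.83) the nearest gene reaches -2.66.

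Partners of the 6 genes in their pathways were taken from lists of 134 genes, of which 132 were in the table. Limma called 0 of the 132, and 39 (29.5%) had an unadjusted p under 0.05, where 20% of all genes had one; the shares for single lists are to be read against the same 20%. Of the 132, 10 were called as higher and 8 as lower in the authors' deposited table. Over the 15605 genes with a rate, the authors called 7.39%, with 4.14% higher and 3.25% lower. Without wildtype replicate 3 limma called 8 of these genes, and without wildtype replicate 1 it called 1. The trend with transcript length over the whole table was not removed from the lists below. Its median log2 difference ran from -0.24 under 2000 bases to 0.34 at 6000 bases and over. The part of this trend in the higher and lower genes of each list was not tested.

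Of the Dock2 list, 20 DOCK, ELMO, Rac and PAK genes, 13 lay higher and 7 lower (median log2 difference 0.22), and 8 had an unadjusted p under 0.05, or 40% beside 20% of all genes. Called in the authors' deposited table were Dock4, Dock5, Dock6 and Dock9, all higher. Rac1, the GTPase that DOCK proteins activate in most tissues, had 9040.7 ± 348.5 normalized counts in the knockout-labelled libraries and 10980.3 ± 1719.8 in the wildtype-labelled libraries (SD, n = 3 each; log2 difference -0.27, adjusted p = 0.312 by limma). Cdc42 had a log2 difference of -0.33. The log2 difference of Dock4 was 0.91 and of Dock6 0.86. These were below the 2.71 of Dock2 itself.

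Of the Cyfip2 list, 22 genes of the WAVE and Arp2/3 complexes and the FMRP family, 7 lay higher and 15 lower (median -0.08), and 6 had an unadjusted p under 0.05, or 27.3% beside 20% of all genes. Called in the authors' deposited table were the small subunit genes Brk1, Arpc1a and Arpc5, all lower, with log2 differences of -0.49, -0.44 and -0.57. Nckap1, which binds Cyfip2 directly in the WAVE complex, had 16866.3 ± 480.9 normalized counts in the knockout-labelled libraries and 17261.7 ± 525.2 in the wildtype-labelled libraries (SD, n = 3 each). Its log2 difference of -0.03 was within the spread between replicates. The Arp2/3 gene Actr2 had a log2 difference of -0.07, and its values overlapped between labels.

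Of the Wdfy1 list, 20 genes of the WDFY family, early endosomes and Toll-like receptor signalling, 13 lay higher and 7 lower (median 0.14), with 4 at an unadjusted p under 0.05, or 20%, the share of all genes. Wdfy3, a scaffold of selective autophagy, had 12511.7 ± 993.2 normalized counts in the knockout-labelled libraries and 6709.7 ± 1983.8 in the wildtype-labelled libraries (SD, n = 3 each; log2 difference 0.94, adjusted p = 0.161 by limma). It and Wdfy4 (0.79) were called as higher in the authors' deposited table, the opposite direction to Wdfy1. Zfyve9 had a log2 difference of 0.17. Tlr3 (0.02) and Ticam1 (-0.36), the receptor and adaptor that Wdfy1 joins, overlapped between labels, with Ticam1 at 1140 in wildtype replicate 3 and 402 to 492 in the other libraries.

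Of the Ide list, 18 peptidase, insulin receptor and amyloid precursor genes were in the table, 15 higher and 3 lower (median 0.23), with 5 at an unadjusted p under 0.05, or 27.8% beside 20% of all genes. Mme, the gene of the amyloid-degrading peptidase neprilysin, was called as lower in the authors' deposited table (log2 difference -0.52). App and Aplp2 had log2 differences of 0.11 and -0.03. Of the Nnt list, 29 genes of NADPH supply and peroxide removal, 8 lay higher and 21 lower (median -0.16), with 9 at an unadjusted p under 0.05, or 31% beside 20% of all genes. Aldh1l2, a mitochondrial enzyme that makes NADPH from formyl-folate, was called as higher in the authors' deposited table, which called the peroxide and thioredoxin genes Gpx1, Prdx3 and Txn2 as lower. Aldh1l2 had 682, 736 and 794 normalized counts in the knockout-labelled libraries and 361, 342 and 274 in the wildtype-labelled libraries, a log2 difference of 1.18 that did not pass limma and did without wildtype replicate 3 (adjusted p = 0.0196). Glud1 (0.02) and Sod2 (-0.04) overlapped between labels. Of the Mmrn1 list, 18 EMILIN family and platelet genes were in the table, 6 higher and 12 lower (median -0.18), with 7 at an unadjusted p under 0.05, or 38.9% beside 20% of all genes. Emilin2 (-0.42) and Vwf (0.75) were its most abundant members. Emilin1, Itgb3 and Vwf were called as higher and Ppbp as lower in the authors' deposited table.

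Within the 6 libraries, some genes outside these lists followed the members closely. For each member they were the 2 highest in a search of 14214 genes averaging 50 or more. In so wide a search over 6 libraries a top value near 1 would be usual, and no link is read from it. By Pearson correlation of log2 values over the 6 libraries, a description that includes the gap between labels, the genes most like Dock2 were C4b (r = 0.995) and Top1mt (0.992), and those most like Wdfy1 were Gtdc1 (0.998) and Zfp942 (0.996). Ide was most like Plbd1 (0.998) and Foxm1 (0.992), Cyfip2 like Gpatch8 and Tbc1d31 (0.997 each), Nnt like Lin54 (0.993) and Epc2 (0.983), and Mmrn1 like Ino80c (0.984) and Kif20b (0.974). Plbd1, for one, had 108, 78 and 77 normalized counts in the knockout-labelled libraries and 1264, 438 and 4524 in the wildtype-labelled libraries. It was picked by this search, and had the order of Ide across the wildtype-labelled libraries, highest in replicate 3 and lowest in replicate 2. Its range was far wider.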

How the data were processed

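The deposited table holds 1 score per gene and sample, gene counts that the authors scaled per sample and rounded, a reading that comes from the values: the ratio of means matched the deposited fold change to within 1% in 99.8% of the 13938 genes whose means both exceeded 50. Per the submitters' processing notes, the authors used TopHat2, DESeq2, Partek and build mm10, with no version or order stated. Annotation, filters, strand setting and read depth are not given in the sources used here. Further deposited columns hold the authors' signed fold change (a score) and false discovery rate, an other unit that is missing for 2061 genes, per the file headers. There were 0 sample columns left unused. The columns' median-of-ratios factors were 1.0038 to 1.0068.

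Values were transformed as log2(value + 1), a scale that can understate the change of low genes, and a filter at a mean of 1 removed 0 genes. Limma 3.58.1 in R 4.3.3 fitted the label, with eBayes and a trend, and p-values were adjusted by Benjamini-Hochberg over 17666 genes at 0.05. The fit was tested on simulated data that gave both labels the same spread for each gene. The real labels differ in spread, so that test does not vouch for the calls here. The 6 members got no test. The members, pathway lists and marker lists (leukocyte, red cell, lymphatic and other endothelial, neuron, Schwann cell, platelet) were chosen with earlier results of these data known. Of the marker lists, the 9 endothelial genes had 7 higher and 2 lower (median log2 difference 0.33). Named genes are the members, Cfb, other substrain genes, called neighbours, up to 3 called members of a list or its 2 most abundant, and the 2 genes most correlated with each member; other genes were named after their values were seen. A result that the rule would name is not reported here. Neighbours were ordered by RefSeq positions on GRCm38.p6, found for 17627 genes; models and transcripts came from Gencode M21 and promoters from RefSeq, which held 4 of the 6 genes. No label says whether libraries share a litter or batch. An exact permutation test of 3 against 3 cannot give a p below 0.1.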

Additional observations from a re-analysis of the deposited data

How the results depend on the processing

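Every difference of the 6 members kept its direction under every alternative tried (pseudocounts, filters, rescaling, replicate block, and each library left out). This was largely fixed in advance. A filter or the replicate block cannot change a difference. Neither a pseudocount nor leaving out 1 library can reverse one whose labels do not overlap. Leaving out 1 library gave log2 differences of 2.55 to 2.85 for Dock2, 0.3 to 0.5 for Cyfip2, -1.52 to -1.38 for Wdfy1, -0.97 to -0.66 for Ide, -0.17 to -0.08 for Nnt and -3.87 to -1.83 for Mmrn1. A pseudocount of 10 gave 2.42 for Dock2, and removal of the length trend gave 2.46 for Dock2 and 0.16 for Cyfip2. Calls over all genes, 28 in all (18 higher, 10 lower), depended on single libraries: leaving out 1 gave 0 to 566 (0 to 449 higher, 0 to 117 lower), with 0 calls without any one library labelled knockout (1797 to 2218 at an unadjusted p under 0.05 by limma), 87 without wildtype replicate 1, 2 without wildtype replicate 2 and 566 without wildtype replicate 3. Without a trend 16 genes were called (10 higher, 6 lower), and by the authors' rate 1153. Called neighbours numbered 0 to 1 and called pathway genes 0 to 8 when 1 library was left out, and Cfb ran from 2.13 to 2.91. Wildtype replicate 3 lay far from every other library. Its squared difference over the sum of 2 values, averaged over genes, was 240.4 to 346.5. Pairs of knockout-labelled libraries had 24.3 to 32.2, and wildtype replicates 1 and 2 had 71.4. The median coefficient of variation was 7.64% under the knockout label and 17.5% under the wildtype label, while limma fitted 1 spread per gene to both. The part of these in the calls was not tested. Replicates with the same number did not deviate together (correlations of -0.03, 0.09 and 0.2), so the numbers are not taken as pairs; with the replicate block 7 genes were called (4 higher, 3 lower). Mmrn1 could not be fitted with a filter at a mean of 20. The depth in reads is unknown, so no interval or floor is given for values near 0, which limits Mmrn1 most.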
